A study of Drosophila melanogaster with 11 samples.

Results

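The comparison described here sets thoraces of flies that expressed ΔOTC over thoraces of control flies, gene by gene. Of 15603 genes in the table, 4877 reached 10 FPKM or more in either library, and these genes make up the comparison. FPKM is a level in which fragments mapped to a transcript are divided by its length and by the depth of the library. The threshold was met in both libraries by 3912 genes, with ΔOTC alone by 569 genes and in the control alone by 396 genes, so the last 2 sets had to differ in level.

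ΔOTC flies carried the tubulin GeneSwitch driver over UAS-dOTC, an RU486-inducible transgene for a variant of the human enzyme ornithine transcarbamylase that misfolds in the mitochondrial matrix. ND75 RNAi flies carried the same driver over a hairpin against ND75, a complex I subunit, and are given only side by side. Control flies carried the driver crossed to the w1118 stock, with no transgene to induce. All 3 groups were adult females that received 200 µM RU486 for 24 hr at day 7, and each library pooled 15 flies whose thoraces had been freed of head, abdomen, wings, legs and intestine. The published figure legend names a daughterless GeneSwitch driver for this experiment, whereas the sample descriptions name a tubulin GeneSwitch driver. ΔOTC and control flies came from different crosses, so the transgene and the genetic background cannot be told apart. With 1 library per group no difference could be set against the spread between replicates, and no p-value is given. Human OTC has no row in the gene table, so the level of the transgene was not measured.

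A protein that misfolds in the mitochondrial matrix triggers the mitochondrial unfolded protein response (UPRmt), which in worms and mammals raises mitochondrial chaperones and proteases, detoxifying enzymes and, in worms, innate immune genes. Innate immunity in Drosophila runs through the Imd pathway, which ends in the NF-κB factor Relish and the antibacterial peptides, and the Toll pathway, which ends in the factors Dorsal and Dif, antifungal peptides and the Bomanin peptides. JAK/STAT and JNK signaling respond to wounding and stress and add the Turandot peptides, protease inhibitors and repair factors. The fat body, the hemocytes (blood cells) and epithelia are the main sources of these secreted products, and all of them have cells in the thorax beside the flight muscle.

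Most transcripts stood near the control level with ΔOTC, while several secreted immune peptides and genes of the intestine lay at the ends of the range. The ratio of ΔOTC to control was within 1.5-fold for 73.2% of the 4877 genes and within 2-fold for 86.4%, with a median of 1.07. Induced genes are those 3-fold or more above the control and reduced genes those at 0.5 of the control or below. Only these folds were taken from the study, which counted genes past them in both treatments and above 10 FPKM in the control. By these folds alone, 168 genes were induced (3.44%) and 287 were reduced (5.88%). At any fold 2865 genes were higher with ΔOTC (58.7%) and 2012 were lower (41.3%). When genes below 10 FPKM in the control were left out, 44 genes were induced (1.02% of 4308) and all 287 reduced genes stayed (6.66%), so 124 induced genes rest on a control level below 10 FPKM. These 124 passed the filter only through the ΔOTC library and had to be higher there. The induced genes made up 4.19% of the FPKM sum of the ΔOTC library and 0.395% of that of the control library, and the reduced genes made up 1.09% of the ΔOTC sum and 4.14% of the control sum. Setting the median ratio to 1 would lower every log2 ratio by 0.10, so a list median near 0.10 is that of a typical gene here.

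Small noncoding RNA genes took 103 of the 4877 places, with 29 induced and 16 reduced, and many of their transcripts are shorter than a library fragment. Without them 139 genes were induced (2.91% of 4774) and 271 were reduced (5.68%), and these are the genes described from here on. Low FPKM values fall on steps worth 1 fragment each, which puts the depth at an estimated 5060000 fragments with ΔOTC, 3000000 with ND75 RNAi and 5470000 in the control. A transcript of 1 kb at 10 FPKM therefore rests on 42.6 fragments with ΔOTC, 25.2 with ND75 RNAi and 46.0 in the control. A 95% interval given with a ratio was computed from these fragments as an exact conditional binomial interval, so it reflects counting error and nothing else. Of 136 induced genes that have one, 135 intervals excluded 1 and 83 lay at 3 or above, and of 264 reduced genes all intervals excluded 1 and 202 lay at 0.5 or below. Just inside the 3-fold threshold stood Trx-2 at 3.02 and CG33995 at 3.03, and just outside it Ipp at 2.98 and CG32984 at 2.96. Just inside the 2-fold threshold stood Ugt86Dd at 0.496 and CG3902 at 0.494, and just outside it obst-A at 0.503 and Mhc at 0.505.

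**Figure D1:**
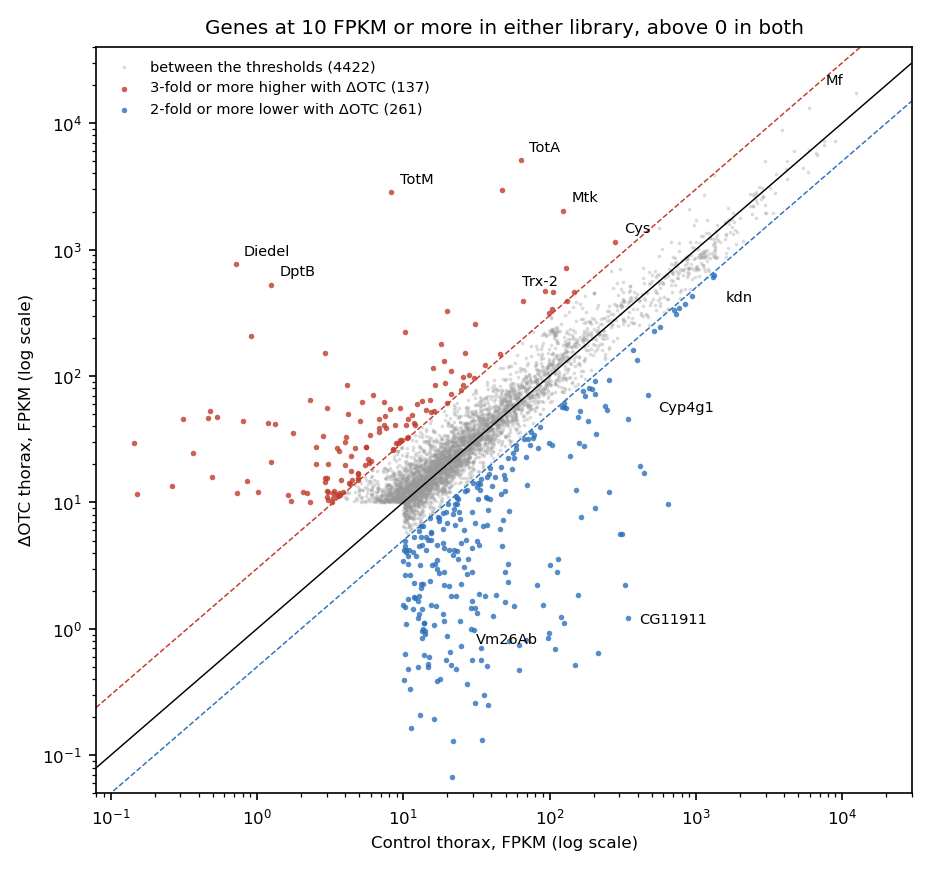
Each point is a gene of the comparison with a value above 0 in both libraries, with its ΔOTC level on the vertical axis and its control level on the horizontal axis (FPKM, log scales). The solid line marks equal levels and the dashed lines a 3-fold higher and a 2-fold lower level; 137 genes lie on or above the upper dashed line, 261 on or below the lower one and 4422 between them, small noncoding RNAs included.

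Secreted immune and stress proteins were among the genes with the highest ratios. Diedel (FBgn0039666), a secreted protein that restrains Imd signaling in virus-infected flies, stood at 769 FPKM with ΔOTC, 1.31 FPKM with ND75 RNAi and 0.717 FPKM in the control. That ratio, 1072 (95% interval 194 to 42740.5), rests on 1 control fragment, so its size is poorly known while the level in the ΔOTC library is not. All 3 Turandot genes at 10 FPKM or more in the control were induced, and the summed level of the 8 genes of the family was 11213 FPKM with ΔOTC, 522 with ND75 RNAi and 139 in the control. Turandot transcripts, which encode stress peptides of the hemolymph, thus took 1.87% of the FPKM sum with ΔOTC, 0.0877% with ND75 RNAi and 0.0238% in the control.

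Antibacterial peptides of the Imd pathway were mostly close to 0 in the control and above 10 FPKM with ΔOTC. Of 13 matched genes 10 reached 10 FPKM and were induced, but 9 of these passed that filter only through the ΔOTC library and had to be higher there. AttC, the other one, stood at 224 FPKM with ΔOTC, 37.8 with ND75 RNAi and 10.4 in the control. The remaining matched genes, CecB, edin and Anp, stayed below 10 FPKM in both libraries. The attacins, which disturb the outer membrane of Gram-negative bacteria, covered a wide range of ratios. AttB stood at 29.7 FPKM with ΔOTC, 5.30 with ND75 RNAi and 0.145 in the control, AttD at 45.8 FPKM (ΔOTC), 4.58 FPKM (ND75 RNAi) and 0.314 FPKM (control), and AttA at 11.7 FPKM (ΔOTC), 11.1 FPKM (ND75 RNAi) and 0.152 FPKM (control). ΔOTC and ND75 RNAi levels were nearly equal for AttA, whereas AttB and AttD stood 5.5972 and 9.9979 times higher with ΔOTC than with ND75 RNAi. AttA and AttB are related neighbors that may share reads, and the AttA level with ΔOTC rests on 37 fragments. The control values of all 3 come from 1 fragment each, and the interval of the AttB ratio accordingly runs from 19.2 to 4355. Cecropins, helical peptides that lyse bacteria, showed the same order of levels. CecC was listed at 44.2 FPKM with ΔOTC, 2.96 with ND75 RNAi and 0.808 in the control, and CecA2 at 37.1 FPKM (ΔOTC), 3.40 FPKM (ND75 RNAi) and 0 (control). Listericin, a peptide active against Listeria, was expressed in all 3 libraries at 48.4 FPKM (ΔOTC), 14.9 FPKM (ND75 RNAi) and 7.51 FPKM (control), a ratio of 6.44 to the control (3.44 to 12.959).

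Further immune genes were listed at 0 in the control, so no ratio can be given. The metchnikowin-like gene CG43236 (now Mtkl) stood at 111 FPKM with ΔOTC and 41.5 with ND75 RNAi, and Def, the antibacterial peptide defensin, at 27.4 FPKM with ΔOTC and 5.58 with ND75 RNAi. CG43175, next to AttD in the order of the genes compared, stood at 128 FPKM with ΔOTC and 20.2 with ND75 RNAi. CG6639 (SPH93), a serine protease homolog, and lectin-24A, a C-type lectin that responds to parasitoid wasps, were lower, at 11.6 and 13.1 FPKM with ΔOTC. The remaining genes at 0 in the control were CG30098 (60.2 FPKM with ΔOTC), CG30287 (10.4), CG3397 (14.966), CG10140 (29.0) and CG42792 (25.2), beside Dpt and CecA1 of the Imd list. Only CG3397 among all 13 had a similar level with ND75 RNAi, 14.3 FPKM. A value of 0 in these files need not mean absence, since all 37 genes of the mitochondrial DNA, which every muscle cell transcribes, were listed at 0 as well.

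Toll-dependent peptides, in contrast, were already abundant in the control and most moved little. Of 19 members 17 were higher with ΔOTC (58.7% of all genes were), 4 were induced and 1 was reduced. The median log2 ratio was 0.46 against 0.10 over all genes of the comparison. The induced members were Def, Mtk, Drs and the Bomanin gene CG16836 (BomT2), which stood at 710.1 FPKM with ΔOTC, 271 with ND75 RNAi and 130.5 in the control (ratio 5.44, 4.58 to 6.49). Another Bomanin, CG43202 (BomT1), which was not on the list, was induced at a low level, with 14.9 FPKM (ΔOTC), 4.67 FPKM (ND75 RNAi) and 0.850 FPKM (control) and a ratio of 17.5 (2.88 to 768). The most abundant Bomanins of the control lay between the thresholds. CG15068 (BomS6) stood at 2084 FPKM with ΔOTC against 892 in the control, IM3 at 1551 FPKM with ΔOTC against 977 in the control, and IM2 at 873 FPKM with ΔOTC against 701 in the control. The antifungal peptide gene dro4 was lower with ΔOTC, at 462 FPKM with ΔOTC against 774 in the control, without reaching the 2-fold threshold.

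Several induced genes encode proteins that sense bacteria or that hold the Imd pathway back. Of 13 recognition genes 5 were induced and 2 were reduced. With 10 FPKM or more in the control 1 of 8 was induced, at a median log2 ratio of 0.10. The other 5 were below 10 FPKM in the control, so they passed the filter only through the ΔOTC library and had to be higher. This holds for PGRP-LB and PGRP-LF, and also for pirk of the Imd list. PGRP-SB1, a secreted amidase that cleaves peptidoglycan, stood at 131 FPKM with ΔOTC, 37.4 with ND75 RNAi and 18.9 in the control. PGRP-LB, an amidase that removes the Imd-activating fragments, had 25.9 FPKM with ΔOTC, 3.67 with ND75 RNAi and 8.47 in the control, a ratio of 3.06 (2.13 to 4.37) with ΔOTC and 0.433 with ND75 RNAi. It was therefore higher than the control in the ΔOTC thorax and lower in the ND75 thorax. PGRP-LF, a membrane protein that blocks the Imd receptor PGRP-LC, followed the same order at 11.4 FPKM (ΔOTC), 2.23 FPKM (ND75 RNAi) and 3.51 FPKM (control). So did pirk, an intracellular inhibitor of that receptor, at 11.982 FPKM (ΔOTC), 2.98 FPKM (ND75 RNAi) and 4.08 FPKM (control), where the ΔOTC ratio of 2.93 lies just under the threshold. PGRP-LC itself had 27.0 FPKM with ΔOTC against 20.6 in the control. PGRP-SC1b, an amidase of the midgut and the second reduced member beside PGRP-SC1a, had 2.27 FPKM with ΔOTC against 24.9 in the control, and as near-identical copies the pair may share reads.

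Few core signaling components of the immune pathways were induced. In the Imd list 10 of 13 genes were higher with ΔOTC (58.7% of all genes were) and 1 was induced (Rel). The median log2 ratio was 0.14, close to the 0.10 of all genes. The kinase complex subunit key (IKKγ) stood at 47.0 FPKM with ΔOTC, 24.6 with ND75 RNAi and 20.9 in the control. In the Toll list 11 of 12 genes were higher, 0 were induced, and the median was 0.34. The highest ratios in it were 2.65 for dl, the NF-κB factor Dorsal (61.3 FPKM with ΔOTC against 23.2 in the control), 2.36 for spz, the ligand of Toll (27.3 FPKM with ΔOTC against 11.6 in the control), and 2.35 for CG6361 (14.2 FPKM with ΔOTC against 6.05 in the control). ND75 RNAi over the same control gave these 3 genes ratios of 1.32, 1.79 and 1.27. CG6361, below 10 FPKM in the control, had to be higher with ΔOTC to pass the filter. Of 4 JAK/STAT genes at 10 FPKM or more in the control all were higher and none was induced. Socs36E, below 10 FPKM in the control, was induced, and the transcription factor Stat92E stood at 68.1 FPKM with ΔOTC against 60.7 in the control.

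**Figure D2:**
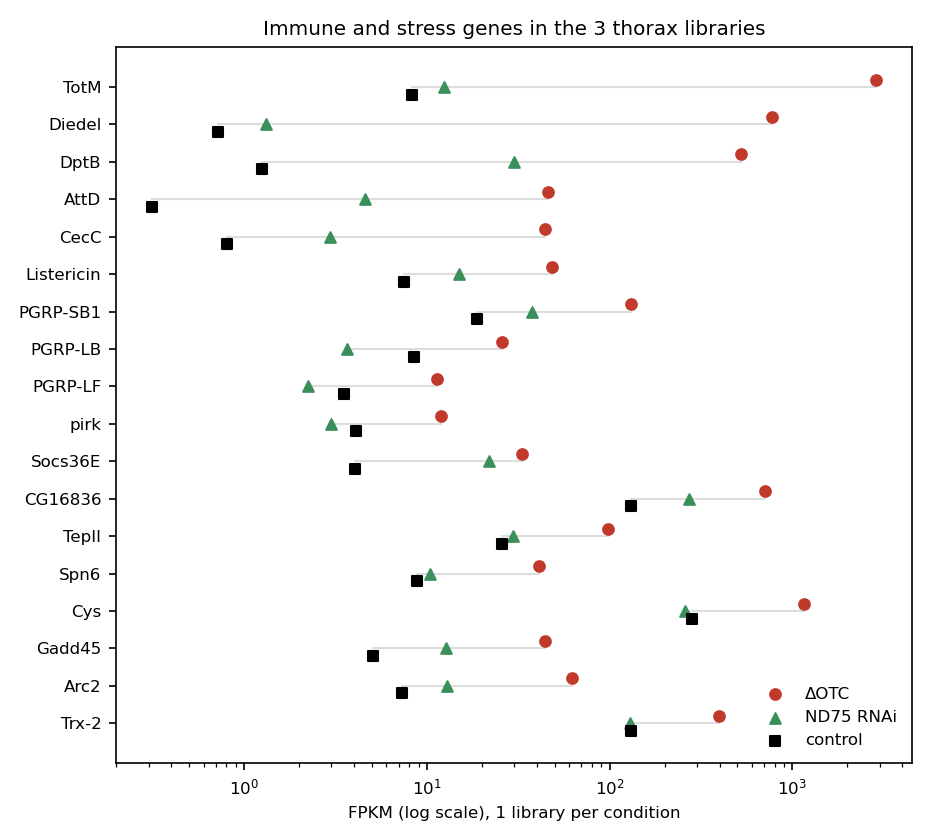
FPKM of 18 immune and stress genes (rows) in the ΔOTC (circles), ND75 RNAi (triangles) and control (squares) thorax, on a log axis, 1 library per condition. The genes were picked after their values were seen. Only PGRP-SB1, CG16836, TepII, Cys and Trx-2 reached 10 FPKM in the control. The others had to be higher with ΔOTC than in the control to pass the filter. The ΔOTC point lies furthest to the right in every row. The ND75 RNAi point lies left of the control for PGRP-LB, PGRP-LF, pirk, Cys and Trx-2.

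Opsonins and phagocytic receptors, by which blood cells recognize and take up microbes and dead cells, stood mostly above the control with ΔOTC. Of 22 matched thioester proteins, nimrods and phagocytic receptors 11 were at 10 FPKM or more in the control. All 11 of these were higher with ΔOTC (58.7% of all genes were), and their median log2 ratio was 0.97. Of the 11, 3 were induced (TepII, nimB3 and nimC1), against 1.02% of all genes at that control level. Another 3, nimB1, nimC4 and eater, passed the filter only through the ΔOTC library and had to be higher. TepII, an opsonin-like thioester protein, stood at 97.7 FPKM with ΔOTC, 29.8 with ND75 RNAi and 25.7 in the control (ratio 3.79, 3.47 to 4.15). The nimrod genes nimB3 and nimC4, the second a receptor for apoptotic cells, had ratios of 4.23 and 3.14, and the scavenger receptor Sr-CI had 2.81. Markers of hemocytes moved in both directions. Of 14 such genes 9 were higher, close to the 58.7% of all genes, 1 was induced (nimC1), 2 were reduced, and the median log2 ratio was 0.24. Hml, a hemocyte clotting factor, stood at 49.7 FPKM with ΔOTC against 30.1 in the control, and the phagocytic receptor eater at 12.3 FPKM with ΔOTC against 6.73 in the control. The 2 reduced markers were the prophenoloxidases of the crystal cells, which drive melanization. PO45 (PPO2) had 19.2 FPKM with ΔOTC, 25.3 with ND75 RNAi and 46.9 in the control, and proPO-A1 (PPO1) had 14.2 FPKM (ΔOTC), 22.3 FPKM (ND75 RNAi) and 32.6 FPKM (control). In bulk tissue, fewer cells of a type and less RNA per cell cannot be told apart, here and for every tissue named below.

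Protease inhibitors included a few induced genes. Of 11 serpins 10 were higher with ΔOTC (58.7% of all genes were) and 2 were induced (3.44% of all genes), with a median log2 ratio of 0.57. Beside Spn88Eb the other was Spn6 (Spn55B), which stood at 40.9 FPKM with ΔOTC, 10.5 with ND75 RNAi and 8.83 in the control, while Spn5 (Spn88Ea), at 30.1 FPKM (ΔOTC), 12.2 FPKM (ND75 RNAi) and 13.8 FPKM (control), lay between the thresholds. Spn6 passed the filter only through the ΔOTC library and had to be higher. The most abundant serpin of the control, Spn43Ab, stood at 135 FPKM with ΔOTC, 114 with ND75 RNAi and 171 in the control. Cys, a cystatin-like inhibitor of cysteine proteases, was among the most abundant induced transcripts, at 1152 FPKM with ΔOTC, 258 with ND75 RNAi and 282 in the control. Its ratio was 4.09 (3.70 to 4.52) with ΔOTC and 0.916 with ND75 RNAi. In the melanization and clotting list 1 of 13 genes was induced and 3 were reduced. The induced gene was yellow-f, a dopachrome conversion enzyme (12.2 FPKM with ΔOTC against 3.86 in the control), and the reduced genes were PO45, proPO-A1 and ple. With its control level below 10 FPKM, yellow-f had to be higher to pass the filter, and 0 of the 11 genes above that level were induced.

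Most JNK signaling genes stood above the control with ΔOTC, and feedback and target genes of the pathway carried the largest ratios. With ΔOTC 16 of 17 members were higher (58.7% of all genes were) and 4 were induced (Ets21C, Gadd45, Jra and puc, against 3.44% of all genes). Of those members 4 entered only through the ΔOTC library, and among the 13 others 12 were higher and 2 induced, with a median log2 ratio of 0.43. Mmp1, a matrix metalloprotease and JNK target, stood at 33.4 FPKM with ΔOTC, 21.9 with ND75 RNAi and 14.3 in the control, and raw, which restrains JNK signaling in the embryo, at 28.8 FPKM (ΔOTC), 17.2 FPKM (ND75 RNAi) and 15.1 FPKM (control). Timp, the inhibitor of matrix metalloproteases, was induced, at 77.5 FPKM with ΔOTC, 49.0 with ND75 RNAi and 24.9 in the control. The kinases hep and Ask1 (listed as Pk92B) stood at 12.4 and 21.8 FPKM with ΔOTC against 10.2 and 16.2 in the control. In the list of p38 and ERK genes 6 of the 7 at 10 FPKM or more in the control were higher and 0 were induced, with a median log2 ratio of 0.11. Over all 10 members 1 was induced. That gene was rho, the protease that releases EGF ligands (26.6 FPKM with ΔOTC, 7.45 with ND75 RNAi and 8.55 in the control), and the ERK target pnt had 12.6 FPKM (ΔOTC), 6.10 FPKM (ND75 RNAi) and 5.98 FPKM (control). Both rho and pnt passed the filter only through the ΔOTC library and had to be higher.

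Insulin, FoxO and TOR genes and secreted growth factors held no induced gene. Of 20 insulin, FoxO and TOR genes 15 were higher with ΔOTC, where 58.7% of all genes were, with a median log2 ratio of 0.35. With ND75 RNAi 7 of them were higher than the same control, and over the 4774 genes of the comparison 31.3% were higher and 68.6% lower with ND75 RNAi than in the control. After Thor the highest ratios were those of Lnk, an adaptor of the insulin receptor (35.8 FPKM with ΔOTC against 16.2 in the control, ratio 2.21), and of step, a guanine nucleotide exchange factor in insulin signaling (29.3 FPKM with ΔOTC against 14.5 in the control, ratio 2.03). The kinase Akt1 stood at 29.6 FPKM with ΔOTC, 15.6 with ND75 RNAi and 18.1 in the control. Among the secreted growth factors the chitinase-like Idgf1 stood at 116 FPKM with ΔOTC, 35.3 with ND75 RNAi and 45.8 in the control, and the activin-like ligand daw at 25.8 FPKM (ΔOTC), 15.9 FPKM (ND75 RNAi) and 13.9 FPKM (control).

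The constitutive chaperones of the cytosol had 0 of 19 members induced and a median log2 ratio of -0.05. In the list of inducible Hsp70 and Hsp68 genes 4 of 5 members were below 10 FPKM in the control, so they entered through the ΔOTC library alone and had to be higher. The other one, the noncoding RNA gene Hsromega, stood at 177 FPKM with ΔOTC, 149.8 with ND75 RNAi and 102 in the control. Past 3-fold, beside Hsp70Bb, were Hsp70Aa (19.6 FPKM with ΔOTC, 13.6 with ND75 RNAi and 5.47 in the control) and Hsp70Ab (20.5 FPKM (ΔOTC), 13.8 FPKM (ND75 RNAi) and 5.81 FPKM (control)), near-identical neighbors whose reads the counting may have split between them. Small heat shock proteins split, with 4 of 7 higher and none past a threshold. CG14207, a muscle small heat shock protein, stood at 373 FPKM with ΔOTC, 179 with ND75 RNAi and 163 in the control, and l(2)efl, an αB-crystallin homolog, at 539.5 FPKM (ΔOTC), 282 FPKM (ND75 RNAi) and 290.1 FPKM (control). Hsp26 stood at 19.5 FPKM (ΔOTC), 15.9 FPKM (ND75 RNAi) and 35.2 FPKM (control), below the control in both treated libraries.

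Mitochondrial chaperones and proteases, the hallmark genes of the UPRmt, stood mostly below the control after 24 hr. By qPCR the study reports that a longer ΔOTC expression raised specific genes of this kind in the female thorax. Of 15 members 12 were lower with ΔOTC, 0 were induced and 1 was reduced, with a median log2 ratio of -0.28. With ND75 RNAi 12 of the 15 were lower too, with a median of -0.30. Over all genes 41.3% were lower with ΔOTC and 68.6% with ND75 RNAi. Hsp60 stood at 45.0 FPKM with ΔOTC, 49.3 with ND75 RNAi and 67.2 in the control, a ratio of 0.669 (0.598 to 0.750) with ΔOTC. Hsc70-5, the matrix Hsp70 mortalin, stood at 85.8 FPKM with ΔOTC, 79.6 with ND75 RNAi and 108 in the control, and Trap1, the matrix Hsp90, at 12.1 FPKM (ΔOTC), 14.7 FPKM (ND75 RNAi) and 13.8 FPKM (control). The Lon protease had 19.012 FPKM (ΔOTC), 16.1 FPKM (ND75 RNAi) and 16.9 FPKM (control), a ratio of 1.13 (0.966 to 1.31) with ΔOTC whose interval includes 1. The reduced gene was l(2)tid, the matrix DnaJ protein (14.2 FPKM with ΔOTC against 30.1 in the control, ratio 0.474). Proteasome subunits were lower for 26 of 28 members by small factors, with a median of -0.11, and autophagy genes were higher for 10 of 12, with a median of 0.15. Folding genes of the endoplasmic reticulum had a median of 0.03, which is negative once the median ratio or the upper quartile is used for scaling, and 0 of 18 were induced. Mitochondrial dynamics and mitophagy genes had 12 members with ratios between 0.967 and 1.4987. Pink1, the kinase that marks damaged mitochondria, stood at 198 FPKM with ΔOTC, 185 with ND75 RNAi and 205 in the control.

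**Figure D3:**
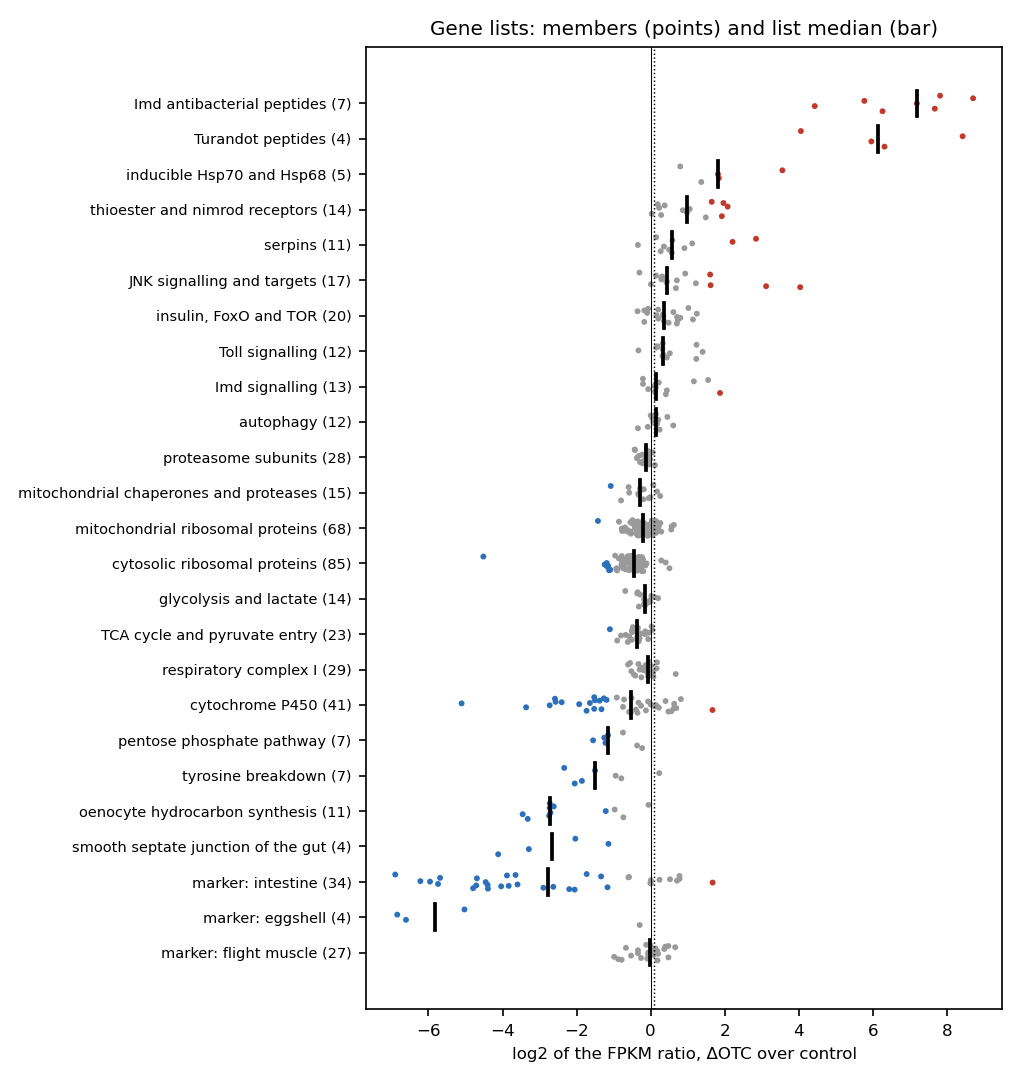
log2 ratio of ΔOTC over control for the members of 25 gene lists, with the number of members above 0 in both libraries in brackets. Points are genes (red, induced; blue, reduced; grey, between), bars are list medians, the solid line is 0 and the dotted line is the median of all genes, 0.10. The Imd and Turandot peptides lie furthest right, at medians of 7.19 and 6.14 (most Imd members passed the filter only through ΔOTC). The eggshell and intestine markers lie furthest left, at -5.82 and -2.76 (3 of the 4 eggshell members passed the filter only through the control).

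Enzymes of the TCA cycle were lower with ΔOTC than in the control as a group, and respiratory subunits less so. Of 23 genes of the TCA cycle and pyruvate entry 21 were lower with ΔOTC and 1 was reduced, whereas 7 were lower with ND75 RNAi. Over all genes 41.3% were lower with ΔOTC and 68.6% with ND75 RNAi. The reduced gene was kdn, citrate synthase, at 608 FPKM with ΔOTC, 1945 with ND75 RNAi and 1303 in the control (ratio 0.466, 0.454 to 0.479). Among the abundant members between the thresholds, Mdh2, mitochondrial malate dehydrogenase, had 871 FPKM (ΔOTC), 1889.7 FPKM (ND75 RNAi) and 1391 FPKM (control), and aconitase (Acon) 1961 FPKM (ΔOTC), 3255 FPKM (ND75 RNAi) and 3008 FPKM (control). Glycolytic genes were lower for 11 of 14 members and none was reduced, the lowest ratio being 0.622 for Tpi, triose phosphate isomerase (404 FPKM with ΔOTC against 649 in the control). Complex I subunits had a median log2 ratio of -0.07 with 0 induced and 0 reduced of 29. The lowest of them was ND75, the target of the other treatment, at 375 FPKM with ΔOTC, 53.8 with ND75 RNAi and 572 in the control. Among complexes II to IV and ATP synthase 1 gene of 33 was reduced, CG4169 (UQCR-C2, a core subunit of complex III), with 629 FPKM with ΔOTC against 1331 in the control. In this list 10 members were higher and 23 were lower with ΔOTC, and the only one past 3-fold was CG34423, a predicted inhibitor of ATP synthase of the IF1 family. It stood at 468 FPKM with ΔOTC, 142 with ND75 RNAi and 93.7 in the control, a ratio of 4.99 (4.17 to 6.05).

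The remaining induced genes included transcripts outside immunity whose level in the ND75 RNAi thorax was at or below that of the control. They were picked from the induced genes after their values were seen. Trx-2, a cytosolic thioredoxin, stood at 394 FPKM with ΔOTC, 129 with ND75 RNAi and 131 in the control. CG14688 (Phyhd1), a phytanoyl-CoA dioxygenase domain protein, had 392.1 FPKM (ΔOTC), 60.2 FPKM (ND75 RNAi) and 66.2 FPKM (control), a ratio of 5.93 (5.30 to 6.65) with ΔOTC. CG6188 (Gnmt), the glycine N-methyltransferase that consumes S-adenosylmethionine, had 50.2 FPKM (ΔOTC), 2.82 FPKM (ND75 RNAi) and 4.19 FPKM (control) and a ratio of 11.995 (7.50 to 20.3). A level with ND75 RNAi at or below the control was the reason for picking these 3 genes and is not a result. In all, 36 of the 139 induced genes were also 3-fold or more above the control with ND75 RNAi (0.964% of all genes were), with the same control library in both ratios. Set over the ND75 RNAi library in place of the control, 95 of the 139 genes were 3-fold or more higher with ΔOTC (3.9% of all genes were), with the same ΔOTC library in both ratios. Tdc1, a tyrosine decarboxylase that makes tyramine, stood at 11.4 FPKM with ΔOTC, 1.10 with ND75 RNAi and 1.64 in the control. CG7192 (Mvb12), a subunit of the ESCRT-I sorting complex, stood at 46.1 FPKM (ΔOTC), 6.78 FPKM (ND75 RNAi) and 6.83 FPKM (control). CG17181 (Kah), a zinc finger factor of the Snail family, stood at 54.5 FPKM (ΔOTC), 7.75 FPKM (ND75 RNAi) and 8.16 FPKM (control). Tdc1, CG6188, CG7192 and CG17181 stood below 10 FPKM in the control, so they had to be higher with ΔOTC to pass the filter.

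Of the 139 induced genes 68 carry only a CG or CR number in the table, and those with the highest ratios among them were close to 0 in the control. CG43085 stood at 52.6 FPKM with ΔOTC, 0 with ND75 RNAi and 0.477 in the control, CG5767 at 47.7 FPKM (ΔOTC), 0.489 FPKM (ND75 RNAi) and 0.535 FPKM (control), and CG14645 at 153 FPKM (ΔOTC), 5.36 FPKM (ND75 RNAi) and 2.92 FPKM (control). These 3 were low in the ND75 RNAi thorax too, unlike CG43095, which stood at 46.2 FPKM with ΔOTC, 27.1 with ND75 RNAi and 0.463 in the control. CG13641 (Srg1) rose in both treated thoraces, at 85.5 FPKM with ΔOTC, 17.7 with ND75 RNAi and 4.15 in the control. CG9989 (Sid), a stress-induced DNase, did so too, at 20.8 FPKM (ΔOTC), 6.19 FPKM (ND75 RNAi) and 1.2506 FPKM (control). CG11459 (CtsL3), a cathepsin L-like protease, stood at 55.4 FPKM with ΔOTC, 4.80 with ND75 RNAi and 3.01 in the control, a ratio of 18.4 (11.6 to 31.9) with ΔOTC. CG10383, with a control level above 10 FPKM, stood at 151 FPKM (ΔOTC), 44.9 FPKM (ND75 RNAi) and 26.3 FPKM (control).

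A further set of induced genes was picked after their values were seen. The annexins AnnIX (AnxB9) and Anxb11, calcium-dependent membrane-binding proteins, stood at 463 and 87.6 FPKM with ΔOTC, 227 and 32.1 with ND75 RNAi and 147 and 19.2 in the control. CalpB, a calcium-dependent calpain protease, had 49.1 FPKM (ΔOTC), 14.6 FPKM (ND75 RNAi) and 11.5 FPKM (control), and Fak56D, the focal adhesion kinase, 39.0 FPKM (ΔOTC), 7.37 FPKM (ND75 RNAi) and 7.68 FPKM (control). Their ratios to the control lay between 3.14 (AnnIX) and 5.09 (Fak56D). The sorting nexin SH3PX1 and the β-tubulin isoform gene betaTub60D, which were picked in the same way, reached 4.70 and 5.75. Arc2, a capsid-forming relative of retrotransposon Gag, stood at 62.3 FPKM with ΔOTC, 12.9 with ND75 RNAi and 7.33 in the control, and the pseudogene CR10102 between Arc1 and Arc2 at 179 FPKM (ΔOTC), 52.2 FPKM (ND75 RNAi) and 18.1 FPKM (control). Of 20 tetraspanins, proteins that organize membrane domains, 1 was induced (Tsp96F, 31.3 FPKM with ΔOTC against 9.77 in the control) and 4 were reduced. Tsp96F passed the filter only through the ΔOTC library and had to be higher.

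A few very abundant genes stood above the control without reaching 3-fold. CG34212 had 3853 FPKM with ΔOTC, 5357 with ND75 RNAi and 1329.7 in the control, the highest control level of any gene with a ratio above 2.5. CG16826 stood at 8884 FPKM (ΔOTC), 8825 FPKM (ND75 RNAi) and 3849 FPKM (control) and CG1678 (whe) at 13112 FPKM (ΔOTC), 11666 FPKM (ND75 RNAi) and 5940.4 FPKM (control). For these genes, chosen after their values were seen, both treated libraries lay above the shared control. Among 136 genes at 1000 FPKM or more in the control 0 were induced and 2 were reduced, with a median ratio of 0.834. Among 2491 genes between 10 and 30 FPKM in the control 28 were induced and 153 were reduced, with a median ratio of 1.03.

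Among stress transcription factors, one-carbon genes, metal handling and the clock, few genes stood far from the control. The bZIP factor Xrp1, which responds to ribosomal and DNA damage, stood at 364 FPKM with ΔOTC, 259 with ND75 RNAi and 216 in the control, while crc, the fly ATF4, stood at 278 FPKM (ΔOTC), 241 FPKM (ND75 RNAi) and 254 FPKM (control). Of 16 genes of the ATF4, serine and one-carbon list 0 were induced and 0 reduced. The highest ratio in it, 2.80 (2.02 to 3.88), was that of Nmdmc, a mitochondrial folate enzyme, at 25.6 FPKM with ΔOTC, 11.1 with ND75 RNAi and 9.13 in the control. A serine synthesis enzyme of the list, the phosphoglycerate dehydrogenase CG6287, stood below the control, at 89.1 FPKM (ΔOTC), 97.1 FPKM (ND75 RNAi) and 142 FPKM (control). Metal-handling genes other than the reduced MtnC lay between the thresholds, the ferritin subunit Fer1HCH at 861 FPKM with ΔOTC against 722 in the control and the metallothionein MtnA at 516 FPKM with ΔOTC against 352 in the control. Subunits of the vacuolar proton ATPase were between the thresholds as well, except for Vha100-5, a subunit that was low in both treated thoraces (1.07 FPKM with ΔOTC, 1.11 with ND75 RNAi and 16.1 in the control). Among 6 clock genes none passed a threshold, with tim at 16.3 FPKM with ΔOTC, 7.49 with ND75 RNAi and 6.09 in the control and the clock repressor cwo at 14.6 FPKM (ΔOTC), 13.3 FPKM (ND75 RNAi) and 26.7 FPKM (control).

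The largest reductions concerned genes of tissues that the dissection was meant to remove. Of 35 intestine markers 24 were reduced and 1 was induced (the lysozyme gene LysP), with a median log2 ratio of -2.76 with ΔOTC and -3.94 with ND75 RNAi. Without a filter on level 36 of 50 matched markers were lower with ΔOTC and 12 were higher. Summed over all matched markers, the level was 1549 FPKM with ΔOTC, 1153 with ND75 RNAi and 3720.2 in the control. The most abundant of these in the control was Jon99Cii, a digestive serine protease, at 16.957 FPKM (ΔOTC), 7.83 FPKM (ND75 RNAi) and 444 FPKM (control). CG11911, a trypsin-like protease, stood at 1.22 FPKM with ΔOTC, 2.47 with ND75 RNAi and 346 in the control, and CG12057 was listed at 0 with ΔOTC, 0.521 FPKM with ND75 RNAi and 159.7 FPKM in the control. The maltases Mal-A1 to Mal-A4, which lie side by side, were all reduced, with Mal-A3 listed at 0 with ΔOTC. Other genes listed at 0 with ΔOTC were etaTry, Npc1b, a sterol transporter of the midgut, CG18585, CG33306, CG6048, CG15534, CG2772, CG7968 and CG15126, with control levels between 10.2 and 46.8 FPKM. The 4 proteins of the smooth septate junction, the seal between midgut cells, were chosen as a list after values were seen. All 4 were reduced, but CG13704, CG31004 and Tsp2A passed the filter only through the control library and had to be lower. CG31004 (mesh) stood at 1.31 FPKM with ΔOTC, 0.646 with ND75 RNAi and 12.8 in the control, and CG6981 (Ssk) at 12.4 FPKM (ΔOTC), 5.91 FPKM (ND75 RNAi) and 27.4 FPKM (control).

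Some ovary genes were low in both treated thoraces, although few were measured and not all moved. Of 17 eggshell genes 4 reached 10 FPKM and 3 were reduced, among them Vm26Ab, a vitelline membrane protein, at 0.850 FPKM with ΔOTC, 5.74 with ND75 RNAi and 97.7 in the control. These 3 passed the filter only through the control library and had to be lower with ΔOTC. Without a filter on level 8 of the 17 were lower with ΔOTC and 8 were higher. The remaining eggshell gene, Cp15, had a ratio of 0.815. Of 22 germline genes 3 reached 10 FPKM and 1 was reduced, the posterior determinant osk at 0.873 FPKM (ΔOTC), 0.493 FPKM (ND75 RNAi) and 19.9 FPKM (control). This gene, too, had to be lower to pass the filter, and without a filter 18 of the 22 were lower and 4 higher. The other germline members, the EGF ligand gene grk (28.9 FPKM with ΔOTC against 19.9 in the control) and gcl (9.21 FPKM with ΔOTC against 10.9 in the control), lay between the thresholds. Among genes picked after their values were seen, the oocyte yolk receptor yl stood at 0.386 FPKM (ΔOTC), 0.109 FPKM (ND75 RNAi) and 17.048 FPKM (control) and RpS5b, the germline copy of a ribosomal protein, at 1.87 FPKM (ΔOTC), 4.51 FPKM (ND75 RNAi) and 42.8 FPKM (control). The mitotic cyclins CycA and CycB followed, with ratios of 0.195 and 0.177. As yl, RpS5b, CycA and CycB stood below 10 FPKM with ΔOTC, they too had to be lower to pass the filter. Fat body markers, by contrast, lay between the thresholds for all 8 members, with a median of -0.04 and a summed level of 16707 FPKM with ΔOTC, 14439 with ND75 RNAi and 17753 in the control. Neuronal markers (8 members) and tracheal and epidermal markers (7) also held no induced or reduced gene. Markers of photoreceptors and head, of testis and accessory gland and of salivary glands had 0 members at 10 FPKM or more, and their summed levels were at most 28.8 FPKM with ΔOTC and 16.1 in the control. The summed level of the intestine markers was thus highest in the control library, and the part of carried-over tissue in the reduced genes was not tested.

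An adult fat body comparison from the same series shows the reduced genes in another dissection that shares no library with the thorax. Those flies carried the daughterless GeneSwitch driver over UAS-dOTC, 1 library with RU486 and 1 without it. By the study's account ΔOTC was expressed there during larval life and the fat bodies were taken from adults at day 7, so time and stage of exposure differ from those of the thorax. Of 40 intestine markers at 10 FPKM or more in either of these libraries 32 stood at 0.1 or less of the level without RU486, with a median ratio of 0.00903. Of 232 genes reduced in the ΔOTC thorax and measured there, 141 were 2-fold or more lower with RU486 (60.8%, against 8.63% of all genes), with a median ratio of 0.183. In this pair intestine markers and most measured genes of the reduced group were low. The reduced group itself holds 24 of the intestine markers, so these 2 results share genes. When the 120 genes at 0.1 or less in that pair were left out, 172 of the 271 reduced and 127 of the 139 induced genes remained in the thorax comparison. Among the induced genes 92 were measured there and 5 were 3-fold or more higher with RU486 (AttB, Diedel, Hsp70Aa, Hsp70Ab and Hsp70Bb), which is 5.43% against 1.09% of all genes. Another 21 were 2-fold or more lower with RU486 (22.8%, against the same 8.63%). Of these induced genes 12 of the 86 (14.0%) at 10 FPKM or more without RU486 stood at 0.1 or less with it, against 3.02% of the genes of the comparison. Those 12 included AttD and CecC of the Imd list, the protease gene CG12374, pgant4, a glycosyltransferase of the secretory pathway, and Bace. In thorax, CG12374 stood at 25.5 FPKM with ΔOTC, 11.2 with ND75 RNAi and 3.64 in the control, so its ΔOTC level was the higher one there.

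Larval fat bodies of the same cross gave another picture. Of 153 reduced genes measured there 18 were 3-fold or more higher with RU486 (11.8%, against 2.34% of all genes) and 17 were 2-fold or more lower (11.1%, against 29.3%). The higher ones included ACC, at 109.7 FPKM with RU486 and 8.35 without, and ATPCL, at 186 FPKM with RU486 and 45.9 without, both reduced in the thorax. Of 71 induced genes measured there 4 were 3-fold or more higher with RU486 (5.63%, against 2.34% of all genes), including CecC, at 13.2 FPKM with RU486 and 2.38 without. Another 24 were 2-fold or more lower (33.8%, against 29.3%), and the median ratio was 0.657 against 0.721 over all genes.

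Flight muscle, the bulk of the tissue, held its transcript levels within the thresholds. All 27 muscle markers at 10 FPKM or more lay between them, with 12 higher and 15 lower with ΔOTC and a median log2 ratio of -0.02, against 0.45 with ND75 RNAi. The defining markers of the labelled tissue were all present, TpnC4 at 1716 FPKM with ΔOTC and 1669.7 in the control and fln at 865 FPKM with ΔOTC and 1373 in the control. Mf, myofilin, was the highest gene of both libraries, at 17347 FPKM with ΔOTC, 9729 with ND75 RNAi and 12435 in the control. Myosin heavy chain (Mhc) stood at 603 FPKM (ΔOTC), 2194 FPKM (ND75 RNAi) and 1195 FPKM (control), a ratio of 0.505 that passes the 2-fold threshold when the median ratio is set to 1, and the actin Act79B at 936 FPKM (ΔOTC), 2491 FPKM (ND75 RNAi) and 1609 FPKM (control). For Mhc, Act79B and fln the ΔOTC library lay below the control and the ND75 RNAi library above it, while for Mf the order was reversed.

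A second group of reduced genes did not follow the intestine markers across the 3 thoraces. Enzymes that make cuticular hydrocarbons in oenocytes, a list chosen after values were seen, were reduced for 8 of 11 members, with a median log2 ratio of -2.70 with ΔOTC and 0.08 with ND75 RNAi over the same control. Cyp4g1, the P450 that completes hydrocarbon synthesis, stood at 70.8 FPKM with ΔOTC, 545 with ND75 RNAi and 469 in the control, a ratio of 0.151 (0.140 to 0.163) with ΔOTC. The elongase eloF and the desaturase Fad2, which make the female pheromone dienes, had 3.57 and 8.55 FPKM with ΔOTC, 25.0 and 68.3 with ND75 RNAi and 23.6 and 52.5 in the control. For these 3 genes only the ΔOTC library was low. The fatty acyl reductases CG17560 and CG10097, the desaturase CG15531 and the elongase CG30008 showed the same order, with ΔOTC ratios between 0.0911 (CG17560) and 0.153 (CG30008) and ND75 RNAi ratios between 0.921 (CG10097) and 1.53 (CG30008). CG17560, CG10097, CG15531, eloF and Fad2 stood below 10 FPKM with ΔOTC. They passed the filter only through the control library and had to be lower with ΔOTC. Without a filter on level 12 of the 13 matched genes were lower with ΔOTC and 0 were higher. The abdomen, where most oenocytes lie, had been removed, and whether the libraries differed in oenocyte content was not tested.

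Cuticle genes were likewise low with ΔOTC and, in part, high with ND75 RNAi. Of 11 cuticle protein genes 9 were lower with ΔOTC and 2 were reduced, while 3 were 3-fold or more higher with ND75 RNAi. Cpr62Bc stood at 3.45 FPKM with ΔOTC, 19.8 with ND75 RNAi and 10.012 in the control. Both reduced genes, Cpr47Ea and Cpr62Bc, passed the filter only through the control library and had to be lower with ΔOTC. The cuticle gene Acp1 and CG7214, next to it in the order of the genes compared, were picked after their values were seen. They stood at 133 and 29.7 FPKM with ΔOTC, 1049.6 and 377 with ND75 RNAi and 399 and 160.2 in the control. CG16885 and CG16884 (Vajk2 and Vajk3) stood at 4.21 and 4.40 FPKM with ΔOTC, 54.3 and 57.7 with ND75 RNAi and 20.6 and 19.1 in the control. The glutathione transferase GstS1, abundant in flight muscle, followed this order at 244 FPKM (ΔOTC), 1222 FPKM (ND75 RNAi) and 566 FPKM (control). For the genes named here the treated libraries lay on opposite sides of the control, which was not so for the whole list.

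**Figure D4:**
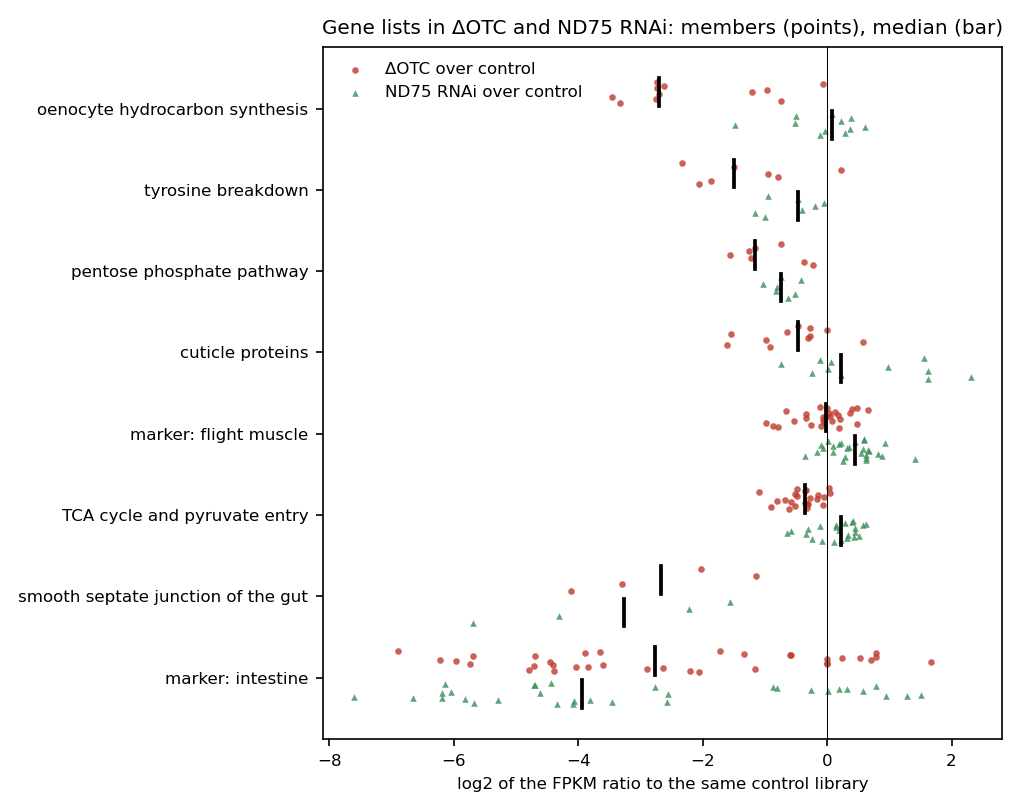
log2 ratio to the same control library for ΔOTC (circles, upper row of each list) and ND75 RNAi (triangles, lower row), with list medians as bars; genes listed at 0 are not drawn. Oenocyte hydrocarbon genes have a ΔOTC median of -2.70 and an ND75 RNAi median of 0.08, whereas intestine markers are low in both, at -2.76 and -3.94.

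Metabolic enzymes outside the mitochondrion were reduced in several pathways. The 2 lists of tyrosine breakdown and of the pentose phosphate pathway were chosen after values were seen. Tyrosine breakdown had 4 of 7 genes reduced, with a median log2 ratio of -1.50 with ΔOTC and -0.46 with ND75 RNAi. CG1461 (Tat), the aminotransferase that opens the pathway, stood at 28.7 FPKM with ΔOTC, 46.8 with ND75 RNAi and 104 in the control, and CG11796 (Hpd), the following dioxygenase, at 43.9 FPKM (ΔOTC), 91.6 FPKM (ND75 RNAi) and 182 FPKM (control). The next enzyme, the homogentisate dioxygenase hgo, stood at 8.43 FPKM (ΔOTC), 17.4 FPKM (ND75 RNAi) and 23.9 FPKM (control), and ple, tyrosine hydroxylase, which turns tyrosine into DOPA, at 3.25 FPKM (ΔOTC), 8.54 FPKM (ND75 RNAi) and 16.4 FPKM (control). All 4 lay lowest with ΔOTC and in between with ND75 RNAi, although hgo and ple, below 10 FPKM with ΔOTC, had to be lower to pass the filter. Hn, the hydroxylase that makes tyrosine from phenylalanine, had a ratio of 1.17 and was not reduced. In the pentose phosphate pathway all 7 genes were lower with ΔOTC and 4 were reduced, with a median of -1.15. Pgd, 6-phosphogluconate dehydrogenase, stood at 16.6 FPKM with ΔOTC, 27.8 with ND75 RNAi and 48.7 in the control, and the transketolase CG8036 at 79.7 FPKM (ΔOTC), 105 FPKM (ND75 RNAi) and 186 FPKM (control).

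In lipid metabolism most genes lay between the thresholds. Of 29 lipid genes 6 were reduced and 1 was induced (Lip4), with 11 higher and 18 lower in all and a median log2 ratio of -0.12. Lip4 passed the filter only through the ΔOTC library and had to be higher. The reduced ones included ATP citrate lyase (ATPCL), acetyl-CoA carboxylase (ACC) and the fatty acid synthase gene CG3523, which catalyse successive steps from citrate to fatty acids. ATPCL stood at 32.3 FPKM with ΔOTC, 35.1 with ND75 RNAi and 77.1 in the control, ACC at 55.7 FPKM (ΔOTC), 83.4 FPKM (ND75 RNAi) and 129 FPKM (control), and CG3523 at 159 FPKM (ΔOTC), 132 FPKM (ND75 RNAi) and 369 FPKM (control). Their ΔOTC ratios were close to each other, between 0.419 (ATPCL) and 0.433 (ACC). The lipophorin receptor LpR1 stood at 77.0 FPKM (ΔOTC), 25.3 FPKM (ND75 RNAi) and 31.3 FPKM (control) and the triglyceride lipase bmm at 60.8 FPKM (ΔOTC), 33.9 FPKM (ND75 RNAi) and 32.3 FPKM (control), both between the thresholds.

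Other reduced enzymes stood at the control level in the ND75 RNAi thorax, and those named here were picked after their values were seen. Gdh, glutamate dehydrogenase of the mitochondrial matrix, stood at 90.8 FPKM with ΔOTC, 193 with ND75 RNAi and 203 in the control. The calcium-binding protein gene regucalcin and its relative smp-30 stood at 93.5 and 13.2 FPKM with ΔOTC, 255.36 and 27.9 with ND75 RNAi and 254.97 and 31.9 in the control. The sorbitol dehydrogenases Sodh-1 and Sodh-2 had ratios of 0.434 and 0.452 with ΔOTC and of 1.12 and 0.817 with ND75 RNAi. Of the 271 reduced genes 195 were 2-fold or more below the same control with ND75 RNAi too, where 7.06% of all genes were. Of the same 271 genes 76 were 2-fold or more lower with ΔOTC than with ND75 RNAi, where 2.41% of all genes were, and these ratios again share the ΔOTC library with those that chose the genes.

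Among detoxifying enzymes more genes were reduced than induced, and most lay between the thresholds. More genes were reduced (5.88%) than induced (3.44%) over the whole comparison as well. Of 41 cytochrome P450 genes 16 were reduced and 1 was induced, with a median log2 ratio of -0.53 with ΔOTC and -0.70 with ND75 RNAi. Cyp6a23, with 23.3 FPKM with ΔOTC, 19.4 with ND75 RNAi and 138 in the control, and Cyp9b2, with 34.7 FPKM (ΔOTC), 50.3 FPKM (ND75 RNAi) and 208 FPKM (control), were low in both treated thoraces. Cyp6a17 had the lowest ratio of the family, 0.0290. The induced member, Cyp304a1, stood at 15.7 FPKM (ΔOTC), 0.642 FPKM (ND75 RNAi) and 4.93 FPKM (control), above the control with ΔOTC and below it with ND75 RNAi. It passed the filter only through the ΔOTC library and had to be higher there. None of the 36 P450 genes at 10 FPKM or more in the control was induced. Among 10 glutathione S-transferases 4 were reduced and 0 were induced. Antioxidant genes apart from Trx-2 and GstS1 stayed between the thresholds, catalase (Cat) at 150.3 FPKM with ΔOTC against 239 in the control and superoxide dismutase (Sod) at 163 FPKM with ΔOTC against 253 in the control.

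Most ribosomal protein genes were lower with ΔOTC. Of 85 cytosolic ribosomal protein genes 82 were lower with ΔOTC (41.3% of all genes were) and 7 were reduced, RpS5b and 6 that lay close to the threshold. Ratios ran between 0.0436 and 1.42. Of those 6, RpL4 stood at 311 FPKM with ΔOTC, 474 with ND75 RNAi and 735 in the control, and RpL13A at 431 FPKM (ΔOTC), 663 FPKM (ND75 RNAi) and 938 FPKM (control). The list took 10.4% of the FPKM sum with ΔOTC, 10.8% with ND75 RNAi and 14.7% in the control. Mitochondrial ribosomal proteins were lower for 47 of 68 members, with a median log2 ratio of -0.21 against -0.45 for the cytosolic ones, and 1 was reduced (mRpS6, 5.79 FPKM with ΔOTC against 15.5 in the control). Ribosome biogenesis genes had 8 of 11 members higher with ΔOTC (58.7% of all genes) and 0 higher with ND75 RNAi (31.3% of all genes), with Nop56, a nucleolar protein of small nucleolar ribonucleoproteins, at 17.997 FPKM (ΔOTC), 8.19 FPKM (ND75 RNAi) and 13.6 FPKM (control). Among aminoacyl-tRNA synthetases Aats-asp stood out at 73.2 FPKM with ΔOTC, 25.7 with ND75 RNAi and 31.6 in the control, with all 14 members between the thresholds.

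Some induced and some reduced genes stood next to each other when the genes of the comparison were put in genome order. Genes left out by the filter are skipped in this order, so neighbors in it need not be adjacent in the genome. Of 136 induced genes with a known place in it 28 had an induced gene as neighbor (20.6%), as did 263 of all 4550 genes placed (5.78%). The runs of 3 were Arc1, CR10102 and Arc2, then Dro, AttA and AttB, then CecA1, CecA2 and CecC, and then CG43071, Dpt and DptB. Neighbors of this kind are often paralogs, which can share reads. Of 264 reduced genes 102 had a reduced neighbor (38.6%), as did 489 of all genes placed (10.7%), with runs of 6 in the Jonah protease cluster from CG10477 to CG10472 and in the trypsin cluster from lambdaTry to alphaTry. The induced protein-coding genes had a median reference transcript length of 1068 nucleotides and the reduced ones of 1198, against 1698 over all protein-coding genes of the comparison.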

How the data were processed

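Total RNA of dissected tissue was made into TruSeq libraries and sequenced on a MiSeq. The authors aligned reads with Bowtie and TopHat to genome release 5.2 and estimated FPKM per gene with Cufflinks (versions not given in the sources used here), and the deposited FPKM values were used as they are, with no further scaling. FPKM depends on the sum of all transcripts, so a few very abundant genes shift every other value. Genes at 10 FPKM or more in either of the 2 libraries compared were kept, and ratios were formed without a pseudocount. The depth behind the intervals was estimated from the step size of low values and the reference transcript lengths (Ensembl release 115), with 81.2% of low values with ΔOTC, 81.3% with ND75 RNAi and 81.8% in the control whole within 0.1 of a fragment. That annotation and its current symbols served for lengths, biotype and gene order only, since its build differs. Computation used numpy 2.4.6, scipy 1.17.1 and pandas 2.3.3 under Python 3.11.15, with figures by matplotlib 3.10.9, and the ratio and interval code was tested on simulated data. Of 66 gene lists with 1573 genes, 927 genes reached 10 FPKM and 3 entries had no match. The genes named were the 20 highest and 20 lowest ratios, genes listed at 0 in 1 library, up to 4 list members with the largest change and up to 2 with the highest control level per list, pathway genes of the study and genes beside the thresholds; any other gene named was picked with its values in view. The comparison and all lists were chosen with earlier results of these data known. Alternatives were other filters, folds, pseudocounts and scalings.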

Additional observations from a re-analysis of the deposited data

How the results depend on the processing

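No paired analysis was possible because each condition had 1 library. Of 168 induced genes, the count was 44 with a control level of 10 FPKM or more, 404 with 1 FPKM or more in either library, 384 with values above 0 in both and no filter, and 375 at 2-fold in place of 3-fold. Of 287 reduced genes, the count was 774 with 1 FPKM or more in either library, 833 with values above 0 in both and 188 without the 120 genes at 0.1 or less in the adult fat body pair, an alternative chosen after seeing the data. The remaining alternatives left both counts within 1.5 times: 147 and 112 induced genes with 1 and 5 FPKM added before the ratio, 150, 158 and 161 after median, upper quartile and sum scaling, and 319, 301 and 295 reduced genes under the same scalings, which shift log2 ratios by 0.10, 0.06 and 0.04. The median log2 ratio of the Imd peptides was 5.203 with 1 FPKM added, and that of the eggshell genes -0.88 with members from 1 FPKM. Of 63 list medians 11 changed sign under an alternative, none of them beyond 0.19 on the log2 scale, and of 131 named genes past a threshold 7 fell short with 1 FPKM added and 8 after median scaling. Control levels of 1 to 3 fragments limit the highest ratios, and with 1 library per condition no difference between animals or dissections could be separated from that between genotypes.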
